A study of Mus musculus with 12 samples.

Results

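The genes described here are 35 type I interferon-stimulated genes, measured by 1-colour Agilent arrays in mouse liver and liver tumours taken 1 week after poly(IC). They were chosen by name as classical targets of interferon alpha and beta, with earlier results of these data known, and all 35 had a probe that passed the filter on dim signals, among 26512 genes tested. Each gene was read from its probe of highest mean, as log2 processed intensity minus the 75th percentile of the array, so a level of 0 is the 75th percentile and a step of 1 is a doubling. Levels are compared between arrays for 1 gene at a time, never between genes.

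The mice were males of a 129/SV/B6 background. All received 50 mg/kg N-nitrosodiethylamine (DEN), a liver carcinogen, at 2 weeks of age, poly(IC) 8 months after that, and the tissue was taken 1 week later, which was also 2 months after irradiation and a bone marrow transplant. The 4 groups, of 3 arrays each, were non-cancerous liver and hepatocellular carcinoma (HCC) of mice labelled Mxcre- (survivin wild type) and of mice labelled Mxcre+ (survivin deleted, called deleted from here on). Survivin, encoded by Birc5, is needed for chromosome segregation and cytokinesis. Cre is driven here by the promoter of Mx1, itself one of the 35 genes, which interferon switches on, so the animals without Cre were given poly(IC) as well. No group was free of poly(IC), so the size of the induction itself was not analysed here. The genotype of the marrow donors and the cells that the irradiated hosts kept are not given in the sources used here. The labels do not say that the 3 arrays of a group came from 3 animals, so the p-values measure the spread between these samples, which may be technical. All 8 hepatocyte markers checked, Alb and Hnf4a among them, were well above background on all 12 arrays.

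Poly(IC) imitates double-stranded viral RNA. It is sensed by TLR3 in endosomes and by MDA5 and RIG-I in the cytosol, which lead to secretion of interferon alpha and beta. These bind a common receptor, and a complex that holds STAT2 and IRF9 enters the nucleus and binds the interferon-stimulated response element in the promoters of a large set of genes, whose products block viral replication, degrade RNA or feed back on the signal. In the liver both hepatocytes and resident immune cells respond.

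The response element holds direct repeats of GAAA, and 5 promoter stretches are shown because they carry such repeats in members whose values are described in the following paragraphs. They are from RefSeq promoter windows on GRCm38.p6, 5′ to 3′ on the strand of the gene and all upstream of the start. Capitals mark GAAA, any 2 bases, GAAA, or the same core read on the opposite strand (TTTC, any 2 bases, TTTC), and overlapping cores run together. The stretches are Isg15 at chr4:156200860-156200911 (minus strand), Ifit1 at chr19:34640770-34640828 (plus strand), Oas3 at chr5:120777710-120777749 (minus strand), Oas1a at chr5:120907526-120907560 (minus strand) and Bst2 at chr8:71537572-71537617 (minus strand).
Isg15: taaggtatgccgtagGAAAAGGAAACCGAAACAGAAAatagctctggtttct
Ifit1: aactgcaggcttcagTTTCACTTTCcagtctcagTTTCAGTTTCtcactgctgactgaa
Oas3: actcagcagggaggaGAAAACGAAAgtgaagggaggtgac
Oas1a: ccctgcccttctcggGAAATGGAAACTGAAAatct
Bst2: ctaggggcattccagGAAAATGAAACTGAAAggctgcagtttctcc
Isg15 has 3 overlapping cores, Ifit1, Oas1a and Bst2 have 2 each, and Oas3 has 1. Of the 35 members, 25 had a promoter window of 250 bases before to 50 bases after a start, and 13 of these 25 held at least 1 core on either strand. Over all 27025 gene symbols with such a window, 3.99% held one. Among members 7 held 2 or more cores, against 0.266% of all symbols. The gamma-activated site core (TTC, any 3 bases, GAA), known from interferon gamma responses, was found in 8 of the 25 members and in 9.55% of all symbols. The 13 members with a core had a median log2 difference of 0.00030 on survivin deletion in HCC, with 7 above 0, and that of the 12 matched members without a core was 0.16, with 9 of 12 above 0. In the other 4 contrasts the medians with and without a core were -0.09 and -0.12 for deletion in liver, -0.07 and -0.19 for HCC against liver in wild type, 0.18 and 0.17 with survivin deleted, and 0.25 and 0.34 for the difference between tissues.

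Birc5, the targeted gene, was read first. Its log2 levels were 2.67, 0.40 and 0.63 in replicates 1 to 3 of wild-type liver, 2.29, -0.21 and -1.19 in deleted liver, 0.64, 0.70 and 1.63 in wild-type HCC and -0.09, 0.05 and -0.21 in deleted HCC. In HCC the deleted arrays were all lower, by -1.08 (SE 0.69), with an exact permutation p of 0.10 (two-sided), the smallest that 3 against 3 arrays allow. In liver the groups overlapped (-0.94, SE 0.69, exact permutation p = 0.50), and the highest deleted array was the library labelled survivin-deleted liver 1. Which stretch of the gene was removed is not given in the labels, so a probe outside it would not check them. That library and the one labelled wild-type HCC 1 are in doubt for a further reason. In the deposited value table their columns match each other's scanner file (r = 1.00) better than their own (0.964 and 0.970). The labels recorded for the scanner files were used. Counts over the members are given with these 2 libraries exchanged and left out. Values with them exchanged are also given for some single genes, not for all that they change. With them exchanged, the Birc5 difference was -1.62 in HCC and -1.49 in liver. With 1 array left out it ran in HCC from -0.53, without wild-type HCC 3, to -1.82, without wild-type HCC 1, and was -0.56 without survivin-deleted HCC 1. In liver it ran from -0.35, without survivin-deleted liver 3, to -1.75, without survivin-deleted liver 1, and was -0.49 without wild-type liver 1.

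Replicate 1 of every group lay on slide 1 and replicates 2 and 3 on slide 2. The 75th percentile was 1283 to 1958 on slide 1 and 3639 to 4243 on slide 2, and the spots well above background were 49.0% on wild-type liver 1 and 69.2% to 83.4% on the other 11 arrays. The slides were therefore a block in the fit, and each carried all 4 groups. In a model with the groups, 16 of the 35 members passed an adjusted p of 0.05 (limma, Benjamini-Hochberg over all genes) as higher on slide 1, where 38.9% of all genes did, and 7 as lower, where 21.6% did. The median difference between slides regardless of sign was 1.05 in the members and 0.72 over all genes. Mx1 was 2.76 higher on slide 1 (SE 0.30, limma adjusted p = 6.1e-05), Rsad2 1.86 (SE 0.30), Irf9 1.75 (SE 0.21) and Isg15 1.31 (SE 0.14). Tlr3 was lower there, with a difference of -2.98 (SE 0.27), as was Cmpk2 (-2.09, SE 0.29). No member differed between groups by more than 1.75 in any of the 5 contrasts. Slide, replicate number and the samples placed on each slide cannot be told apart.

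**Figure D1:**
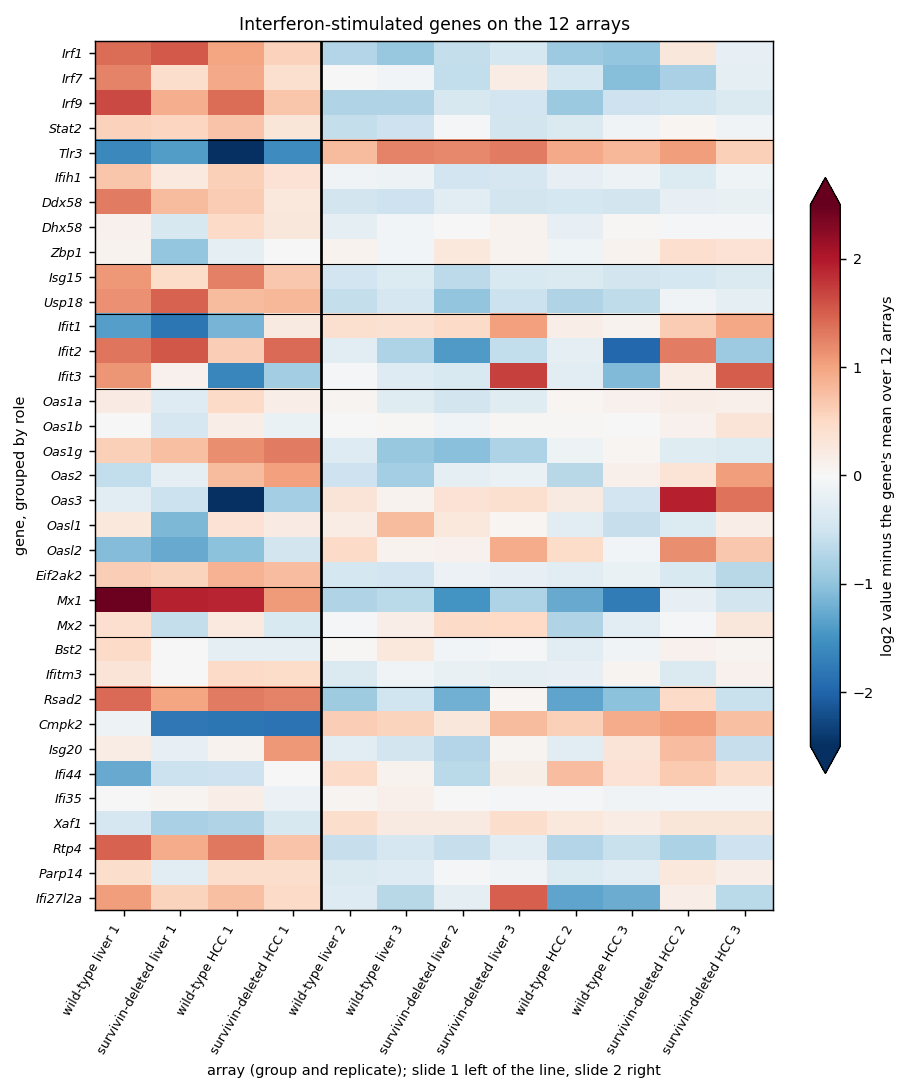
Heatmap of the 35 genes (rows, grouped by role) on the 12 arrays (columns, slide 1 left of the line and slide 2 right); colour is the log2 value minus the mean of the gene over 12 arrays, clipped at the ends of the scale. Most rows change colour at the line between the slides, with Mx1 2.76 higher on slide 1 and Tlr3 at -2.98. In some rows groups differ more within a slide than the slides do. Oas2 differs by 0.36 between slides, and deleted HCC exceeds deleted liver by 1.28 on slide 1 and 0.90 on slide 2. For Bst2 these are 0.0064 between slides, and -0.72 and -0.33 for wild-type HCC minus wild-type liver.

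The first comparison was survivin deletion in HCC, which asks whether tumours without survivin differ in interferon-stimulated transcripts 1 week after poly(IC). Among the members, 24 of 35 were higher and 11 lower in the deleted tumours, where 47.6% of all genes were higher and 52.4% lower. Their median log2 difference was 0.16, against -0.02 over all genes. None passed the adjusted threshold in limma (0 of 35 members, 0% of 26512 genes). At an unadjusted p under 0.05, 4 members were higher, where 3.48% of all genes were, and 0 lower, where 4.43% were. These 4 were Oas3, Ifit1, Oasl2 and Oas2. Oas3 passed the filter on dim signals only through the deleted groups, so its place in this count is a description. Under a filter on all arrays, which left out Oas3 and Tlr3, 3 members were higher at that p (3.91% of all genes) and 0 lower (5.94% of all genes). The groups did not overlap for 1 member, Ifit1, which was higher (2.93% of all genes were so separated as higher and 2.87% as lower).

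The values differed between slides. On slide 2, with 2 arrays a group, 27 of 35 members were higher in deleted HCC with a median of 0.25, while on slide 1, with 1 array a group, 14 were higher with a median of -0.06. Over all genes 54.6% were higher on slide 2 (median 0.04) and 35.8% on slide 1 (median -0.18). The shares of members were 77.1% and 40%, so on slide 1 the members lay near all genes. The sign was the same on both slides for 16 members, 11 higher and 5 lower, which is 45.7% of members and compares with 46.3% of all genes. With the 2 doubtful libraries exchanged, 29 members were higher and 6 lower (median 0.21), 7 were higher at an unadjusted p under 0.05 (3.42% of all genes), and Ifit1, Oas1a, Oas2 and Parp14 were separated as higher (2.6% of all genes). Besides Ifit1, Oas2 and Parp14, the 7 were Oasl1, Oasl2, Rsad2 and Zbp1. Without both libraries 27 were higher and 8 lower (median 0.14). With the libraries as labelled and the probes of each gene averaged, only 20 were higher and 15 lower (median 0.16). Cmpk2, Ddx58, Oas1b and Xaf1 were higher on the chosen probe and lower on their other probes, and Isg15 was the reverse.

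In non-cancerous liver the members lay the other way, with 10 of 35 higher and 25 lower after survivin deletion, where 57.3% of all genes were higher and 42.7% lower. The median was -0.09, against 0.07 over all genes. The limma fit called 0 members (0% of all genes). At an unadjusted p under 0.05 there were 0 members higher (9% of all genes) and 1 lower, Ifih1 (2.98% of all genes). Oas2 was separated as higher (6.85% of all genes) and Bst2 as lower (2.9% of all genes). On slide 1 27 members were lower with a median of -0.44, where 44.3% of all genes were lower with a median of 0.12. On slide 2 15 members were lower with a median of 0.06, where 46.1% of all genes were lower with a median of 0.03. With the doubtful libraries exchanged the counts were 15 higher and 20 lower (median -0.01), 0 members were lower at an unadjusted p under 0.05 (3.79% of all genes) and 1, Oas2, was higher (5.53% of all genes). Without both libraries they were 17 and 18 (median -0.03). Markers of some cell types also lay lower in deleted liver, with 7 of 8 hepatocyte markers lower (median -0.25) and 8 of 8 endothelial markers lower (median -0.19). Kupffer cell, monocyte and neutrophil, erythroid and stellate cell markers were mostly lower too. Other lists went the other way, with 10 of 11 T and NK cell and 7 of 8 B and plasma cell markers higher (medians 0.14 and 0.21). So did 6 of 8 plasmacytoid dendritic cell and 4 of 5 cholangiocyte markers (medians 0.42 and 0.55). At an unadjusted p under 0.05, 3 hepatocyte markers and 1 endothelial marker were lower (2.98% of all genes). The part of these cells in the result was not tested. The hepatocyte level, as a mean of centred log2 values, ran from 0.07 to 0.25 in wild-type and from -0.22 to -0.07 in deleted liver, and the endothelial level from 0.18 to 0.28 and from -0.34 to 0.21.

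Whether deletion acted differently in HCC and liver was tested as an interaction, the HCC change minus the liver change. It was above 0 for 31 of 35 members and below 0 for 4, where 41.6% of all genes were above 0 and 58.4% below. The median was 0.29, against -0.08 over all genes. Again limma called 0 members and 0% of all genes; at an unadjusted p under 0.05 there was 1 member higher, Oas3 (0.769% of all genes), and 0 lower (2.58% of all genes). On slide 1 alone 25 members were above 0 (median 0.24), where 38.5% of all genes were (median -0.25), and on slide 2 alone 27 were (median 0.24), where 50.8% of all genes were (median 0.0065). Oas3 had passed the filter on dim probes only through the deleted groups, and without Oas3 and Tlr3, under the filter on all arrays, 0 members had an unadjusted p under 0.05 (1.04% of all genes higher and 1.27% lower). Under that filter 29 of 33 members were above 0 and 4 below, with a median of 0.29, against 0.00099 over all genes. Exchanging the doubtful libraries gave 31 and 4 again, because both enter this contrast with the same sign, and leaving both out gave 27 and 8 (median 0.24).

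**Figure D2:**
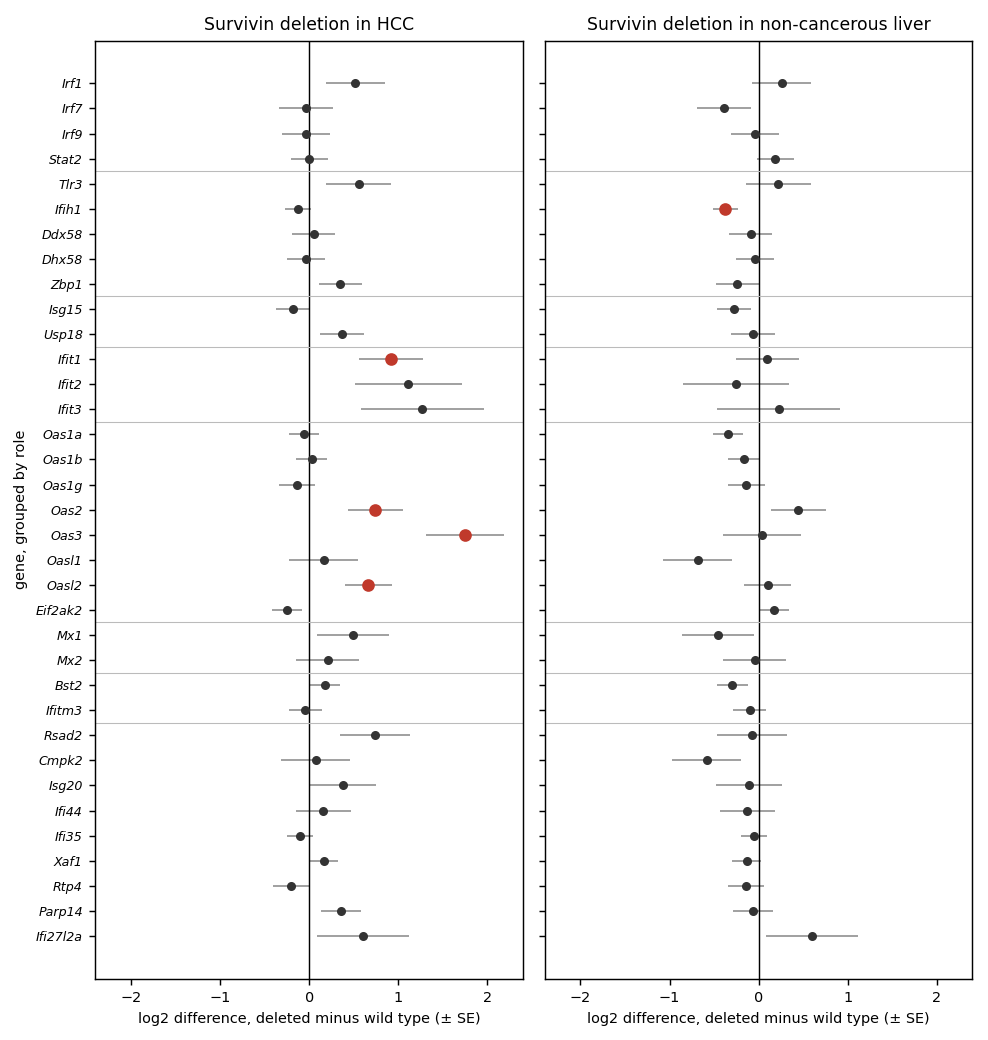
Log2 difference, survivin-deleted minus wild type, with its SE for each of the 35 genes (rows, grouped by role) in HCC (left) and non-cancerous liver (right); red points have an unadjusted p under 0.05 and none passed the adjusted threshold. In HCC the points run from -0.25 to 1.75 with Oas3 farthest right, and in liver from -0.68 to 0.60.

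HCC was also compared with non-cancerous liver in each genotype. In wild type, 12 of 35 members were higher in HCC and 23 lower, where 56.6% of all genes were higher and 43.4% lower, with a median of -0.12 against 0.05 over all genes. With survivin deleted the members were 25 higher and 10 lower, where 42.9% of all genes were higher and 57.1% lower, with a median of 0.19 against -0.05. These comparisons share arrays with the deletion comparisons. Neither had a member past the adjusted threshold (0 of 35 in each, 0% of all genes in each). In wild type Oas1g and Oas2 were higher at an unadjusted p under 0.05 (2 members, 3.7% of all genes) and Bst2 lower (1 member, 2.35% of all genes), and Bst2 was the 1 member separated as lower (2.44% of all genes), with 0 separated as higher (4.99% of all genes). With survivin deleted Oas2, Oas1a, Oas1g and Ifi44 were higher at an unadjusted p under 0.05 (4 members, 1.63% of all genes) and 0 lower (2.84% of all genes). There Oas2, Oas1a and Parp14 were separated as higher (3 members, 2.07% of all genes) and Ifi35 as lower (1 member, 2.49% of all genes). With the doubtful libraries exchanged the wild-type counts were 6 higher and 29 lower (median -0.20), with Oasl1, Mx2 and Bst2 separated as lower (3.26% of all genes) and 0 higher at an unadjusted p under 0.05 (7.87% of all genes). Those with survivin deleted were then 24 and 11 (median 0.19). There 0 members remained separated as higher (3.07% of all genes) and 1, Ifi35, as lower (3.24% of all genes). Without both libraries the counts were 9 and 26 (median -0.10) in wild type and 22 and 13 (median 0.09) with survivin deleted. Under the filter on all arrays the wild-type median was -0.10 over members and -0.0096 over all genes. With survivin deleted it was 0.19 over members and -0.02 over all genes.

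The transcription factors came first in the pathway. IRF7 amplifies interferon alpha production, and its gene is itself induced by interferon. Irf7 stood at 3.31, 2.08 and 1.99 in replicates 1 to 3 of wild-type liver, 2.51, 1.45 and 2.25 in deleted liver, 3.02, 1.63 and 1.00 in wild-type HCC and 2.46, 1.26 and 1.82 in deleted HCC. Replicate 1 was highest in each group and the groups overlapped throughout. Its deletion difference was -0.03 (SE 0.30) in HCC and -0.39 (SE 0.30) in liver. Irf9, the DNA-binding part of the STAT complex, stood at 3.65, 1.25 and 1.24 in wild-type liver, 2.90, 1.61 and 1.52 in deleted liver, 3.40, 1.07 and 1.48 in wild-type HCC and 2.70, 1.51 and 1.64 in deleted HCC. On slide 1 the deleted arrays were the lower ones and on slide 2 the higher ones, in both tissues, and the fitted differences were -0.04 (SE 0.27) in HCC and -0.04 (SE 0.27) in liver. Stat2, which carries the transactivating part of that complex, read 2.96, 1.80 and 1.88 in wild-type liver, 2.93, 2.34 and 1.93 in deleted liver, 3.1, 2.02 and 2.30 in wild-type HCC and 2.69, 2.43 and 2.30 in deleted HCC. Its groups overlapped, and in HCC its difference was 0.00030 (SE 0.21). Irf1, a factor that interferon gamma also induces, had means of 1.15 ± 1.11 in wild-type and 1.67 ± 0.40 in deleted HCC (SD, n = 3), a difference of 0.52 (SE 0.33). Its other probe gave 0.10 (SE 0.29) in HCC. In liver the chosen probe gave 0.26 (SE 0.33) and the other 0.92 (SE 0.29) on deletion. The difference between tissues was therefore of opposite sign, 0.26 on the chosen probe and -0.82 on the other.

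Among the RNA and DNA sensors, 3 of 5 were higher in deleted HCC and 1 of 5 in deleted liver. Ifih1 encodes MDA5, the cytosolic sensor of long double-stranded RNA and so of poly(IC). It read 3.37, 2.59 and 2.54 in wild-type liver, 2.92, 2.20 and 2.26 in deleted liver, 3.27, 2.48 and 2.55 in wild-type HCC and 3.03, 2.32 and 2.56 in deleted HCC. In liver the deleted arrays lay below the wild-type arrays of the same slide, and in HCC they did so on slide 1 and overlapped on slide 2. In liver the difference was -0.37 (SE 0.14, unadjusted p = 0.026, limma adjusted p = 0.41) and in HCC -0.13 (SE 0.14). With the doubtful libraries exchanged the liver value was -0.26 (SE 0.17, unadjusted p = 0.16). The second Ifih1 probe gave -0.30 (SE 0.19) and -0.33 (SE 0.19). Tlr3, the endosomal sensor, read -5.64, -3.23 and -2.78 in wild-type liver, -5.42, -2.82 and -2.73 in deleted liver, -7.39, -3.07 and -3.20 in wild-type HCC and -5.59, -2.98 and -3.42 in deleted HCC. It was well above background on 9 of 12 arrays, and the first replicates of all groups but deleted liver did not reach that mark. The Tlr3 difference of 0.56 (SE 0.37) in HCC came from slide 1 (1.80), where neither array was well above background, and was -0.07 on slide 2, and the fitted value was -0.10 (SE 0.44) with the doubtful libraries exchanged. In liver its slide 1 difference of 0.21 became -1.76 with the exchange, between arrays that were not well above background. Ddx58 (RIG-I), Dhx58 (LGP2, a regulator of both) and Zbp1 (a sensor of left-handed nucleic acids) had deletion differences of 0.05, -0.03 and 0.35 in HCC and of -0.09, -0.04 and -0.24 in liver, none with an unadjusted p under 0.05.

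Isg15 encodes a ubiquitin-like protein that is joined to other proteins or secreted. Its levels were 3.61, 2.05 and 2.18 in wild-type liver, 2.99, 1.87 and 2.15 in deleted liver, 3.79, 2.16 and 2.07 in wild-type HCC and 3.21, 2.09 and 2.17 in deleted HCC. On slide 2 all 8 arrays lay between 1.87 and 2.18, and on slide 1 the 4 arrays lay between 2.99 and 3.79. The deletion differences were -0.19 (SE 0.19) in HCC and -0.28 (SE 0.19) in liver, and the other probe of the gene gave 0.15 (SE 0.23) and -0.31 (SE 0.23). Usp18, the protease that removes ISG15 and also dampens the interferon receptor, read 2.62, 0.89 and 1.07 in wild-type liver, 2.95, 0.49 and 0.94 in deleted liver, 2.28, 0.74 and 0.85 in wild-type HCC and 2.32, 1.39 and 1.26 in deleted HCC. On each slide the deleted HCC arrays were above the wild-type HCC arrays, by 0.04 on slide 1 and by 0.53 on slide 2. After the exchange of the doubtful libraries the slide 1 difference was -0.63. The fitted difference of 0.37 (SE 0.25) had an unadjusted limma p of 0.17, and was 0.14 (SE 0.24) after the exchange.

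IFIT1, of the IFIT family, binds viral RNA that lacks the cap methylation of host messages. All 3 measured genes of the family were higher in deleted than in wild-type HCC under all 12 settings that kept the 12 arrays, the reported one included. Some of these settings, such as a change of block, leave the fitted differences as they are, so the 12 are not separate checks. Ifit1 read -0.60, 1.18 and 1.16 in wild-type liver, -1.03, 1.26 and 1.80 in deleted liver, -0.39, 0.94 and 0.87 in wild-type HCC and 1.01, 1.42 and 1.76 in deleted HCC. Every deleted HCC array exceeded every wild-type HCC array, though 1.01 and 0.94 are close. The difference was 0.92 (SE 0.36), a fold of 1.89, with an unadjusted p of 0.028 and a limma adjusted p of 0.61. Without survivin-deleted HCC 1 it was 0.49, and over all alternatives it ran from 0.49 to 1.18 with adjusted p from 0.19 to 1. In liver the Ifit1 difference was 0.10 (SE 0.36), and the difference between tissues, 0.82 (SE 0.50), had an unadjusted p of 0.13. Ifit2 averaged -2.47 ± 1.31 in wild-type and -1.35 ± 1.31 in deleted HCC, and Ifit3 -0.96 ± 0.69 and 0.31 ± 1.19 (SD, n = 3). Their differences, 1.11 (SE 0.60) and 1.27 (SE 0.69), were large but within the spread of the arrays (unadjusted p = 0.092 and 0.097). All 3 were lower in wild-type HCC than in wild-type liver, by -0.10 for Ifit1, -0.62 for Ifit2 and -1.24 for Ifit3, with unadjusted p from 0.10 to 0.78.

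The OAS enzymes make 2′-5′-linked oligoadenylates when they bind double-stranded RNA, which activate RNase L. Oas3 had the largest deletion difference of all members in HCC. It read -4.80, -4.20 and -4.42 in wild-type liver, -5.05, -4.15 and -4.12 in deleted liver, -7.04, -4.30 and -5.0 in wild-type HCC and -5.37, -2.56 and -3.15 in deleted HCC. On each slide the deleted HCC arrays were above the wild-type HCC arrays, by 1.67 on slide 1 and 1.79 on slide 2, while over both slides the groups overlapped. The fitted difference was 1.75 (SE 0.44), a fold of 3.37, with an unadjusted p of 0.0027 and a limma adjusted p of 0.54. Oas3 was well above background on 10 of 12 arrays, and wild-type liver 1 and wild-type HCC 1 were the others. It therefore passed the filter only through the 2 deleted groups, and a gene that passes in this way is more likely to differ from wild type, so its p is given as a description. The value on wild-type HCC 1 lay below the dimmest probe called above background on that array (-5.59), so the size of the difference on slide 1 is uncertain. With the doubtful libraries exchanged the difference was 1.09 (SE 0.53) and that on slide 1 -0.32, without both it was 1.45 (SE 0.50), with normexp background correction and 75th percentile scaling it was 0.99, and over all alternatives the adjusted p ran from 0.11 to 1. In liver it was 0.03 (SE 0.44) as labelled, with -0.25 on slide 1. With the doubtful libraries exchanged the slide 1 difference in liver was -2.24, between arrays on which Oas3 was not well above background. The difference between the tissues was 1.72 (SE 0.62, unadjusted p = 0.020, limma adjusted p = 0.91).

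Oas2 read -1.95, -1.86 and -2.20 in wild-type liver, -1.58, -1.58 and -1.51 in deleted liver, -0.55, -2.04 and -1.22 in wild-type HCC and -0.30, -0.99 and -0.29 in deleted HCC. As labelled, the 3 deleted HCC arrays were above all 6 liver arrays, and the deleted liver arrays above the wild-type liver arrays. With the doubtful libraries exchanged the deleted HCC and deleted liver arrays overlapped. HCC exceeded liver by 1.03 with survivin deleted (SE 0.31, unadjusted p = 0.0078, limma adjusted p = 0.90) and by 0.73 in wild type (SE 0.31, unadjusted p = 0.040). Deleted arrays were higher by 0.74 in HCC (SE 0.31, unadjusted p = 0.038, limma adjusted p = 0.63) and by 0.45 in liver (SE 0.31). The difference between these was 0.29 (SE 0.44, unadjusted p = 0.52, limma adjusted p = 0.94). Without wild-type HCC 2 the HCC value was 0.39. Exchanging the doubtful libraries gave 1.08 for deletion in HCC, 0.79 for deletion in liver, 0.39 for HCC against liver in wild type and 0.69 with survivin deleted.

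Oas1a, an active enzyme of the mouse Oas1 cluster, read 2.72, 2.60 and 2.21 in wild-type liver, 2.20, 2.07 and 2.23 in deleted liver, 2.99, 2.58 and 2.63 in wild-type HCC and 2.68, 2.70 and 2.65 in deleted HCC. The deleted groups did not overlap between tissues, and HCC was higher by 0.51 (SE 0.17, unadjusted p = 0.013, limma adjusted p = 0.90). Exchanging the doubtful libraries cut this to 0.25 (SE 0.25), and the second Oas1a probe gave 0.18 (SE 0.19). Oas1g read -2.88, -3.81 and -4.42 in wild-type liver, -2.73, -4.53 and -4.25 in deleted liver, -2.32, -3.60 and -3.44 in wild-type HCC and -2.18, -3.77 and -3.81 in deleted HCC. On each slide its HCC arrays were above the liver arrays, by 0.58 in both genotypes (SE 0.20, unadjusted p = 0.017 in each, limma adjusted p = 0.75 and 0.90), and by 0.45 in both with the doubtful libraries exchanged (SE 0.27, unadjusted p = 0.13). Mouse Oas1 genes are near copies of each other, so the probes of Oas1a, Oas1b and Oas1g may share signal. Oas1b, of which common laboratory strains carry a truncated form, varied little, from 4.03 ± 0.24 in deleted liver to 4.28 ± 0.25 in deleted HCC. Oasl2, an OAS-like protein, averaged -0.71 ± 0.74 in wild-type and -0.04 ± 0.83 in deleted HCC (SD, n = 3), with deleted above wild type by 0.55 on slide 1 and 0.72 on slide 2 (0.67, SE 0.27, unadjusted p = 0.032, limma adjusted p = 0.62). Oasl1, which restrains Irf7 translation, differed by -0.68 (SE 0.39) on deletion in liver, -1.38 on slide 1 and -0.33 on slide 2. With the doubtful libraries exchanged these became 0.10 on slide 1 and -0.19 (SE 0.27) in all, and Oasl1 was lower in wild-type HCC than in wild-type liver by -1.07 (SE 0.27, limma adjusted p = 0.35), against -0.57 (SE 0.39) as labelled. Eif2ak2, the RNA-activated kinase PKR, had -0.25 (SE 0.17) in HCC and 0.18 (SE 0.17) in liver.

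**Figure D3:**
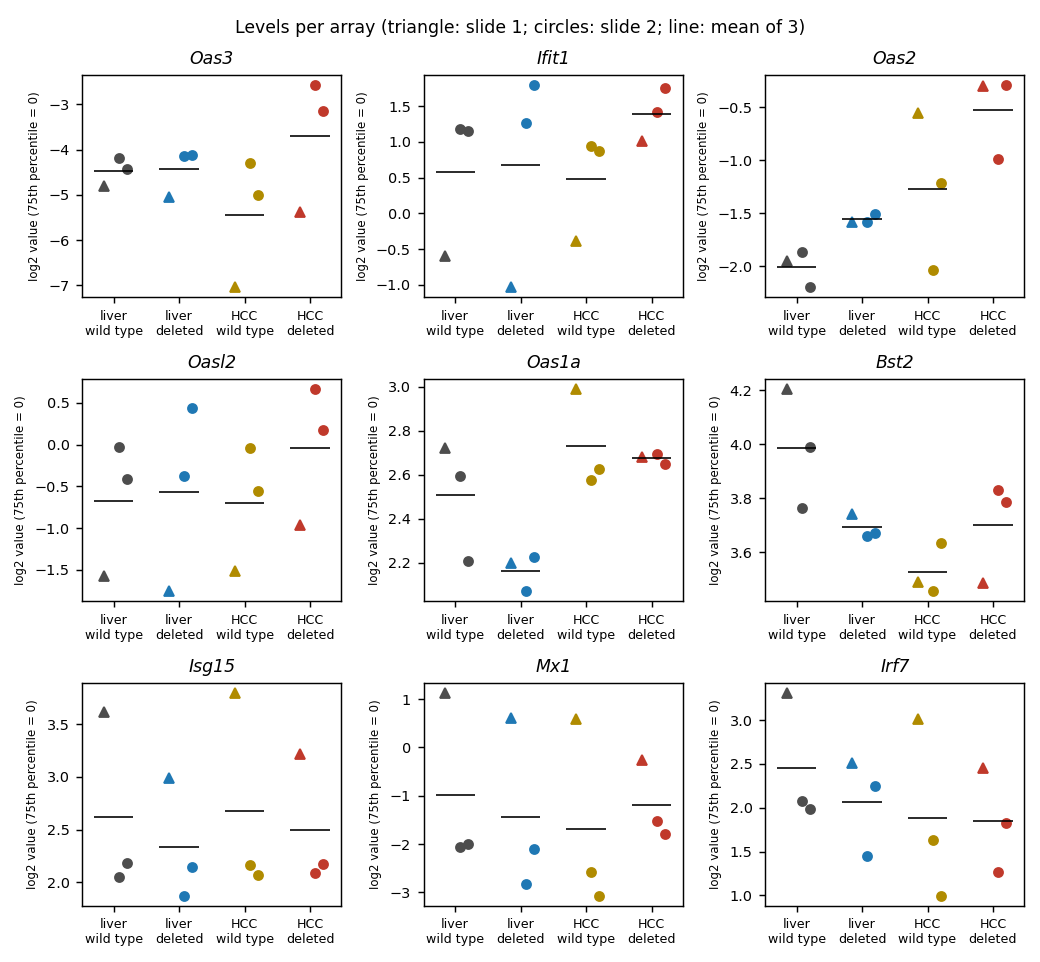
Log2 levels of 9 genes on each array (75th percentile of the array = 0), by tissue and survivin genotype; triangles are slide 1, circles are slide 2 and the line is the mean of the 3 arrays. In Ifit1 all 3 deleted HCC arrays (1.01 to 1.76) lie above the wild-type HCC arrays (-0.39 to 0.94), in Oas3 they do so within each slide, and in Isg15 and Mx1 the triangles set the spread.

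The Mx GTPases block the replication of RNA viruses. Mx1 read 1.12, -2.07 and -2.00 in wild-type liver, 0.61, -2.82 and -2.10 in deleted liver, 0.59, -2.58 and -3.06 in wild-type HCC and -0.26, -1.52 and -1.78 in deleted HCC. On slide 2 the deleted HCC arrays were the highest of the 8 and on slide 1 the deleted HCC array was the lowest of the 4. The deletion difference in HCC was -0.85 on slide 1 and 1.17 on slide 2 (fitted 0.50, SE 0.40, unadjusted p = 0.25). Mx2 had -0.62 on slide 1 and 0.62 on slide 2 (fitted 0.21, SE 0.35), and 0.48 (SE 0.22) with the doubtful libraries exchanged. Both were lower in wild-type HCC than in wild-type liver, by -0.70 (SE 0.40) and -0.44 (SE 0.35), without passing an unadjusted p of 0.05. After the exchange Mx2 was lower there by -0.71 (SE 0.22, unadjusted p = 0.0088, limma adjusted p = 0.40).

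Bst2 encodes tetherin, which holds budding virions at the cell surface. It read 4.21, 3.76 and 3.99 in wild-type liver, 3.74, 3.66 and 3.67 in deleted liver, 3.49, 3.46 and 3.63 in wild-type HCC and 3.49, 3.83 and 3.79 in deleted HCC. Wild-type liver was the highest group and overlapped survivin-deleted HCC, while both other groups lay wholly below it. Wild-type HCC was lower by -0.46 (SE 0.17, unadjusted p = 0.025, limma adjusted p = 0.75), a fold of 1.38, and the difference ran from -0.58 to -0.29 over the alternatives. Deleted liver was lower by -0.29 (SE 0.17, unadjusted p = 0.12). Ifitm3, which blocks viral entry from endosomes, read 4.81, 4.14 and 4.41 in wild-type liver, 4.49, 4.31 and 4.25 in deleted liver, 4.96, 4.29 and 4.57 in wild-type HCC and 4.94, 4.13 and 4.61 in deleted HCC. All groups overlapped, and its differences on deletion were -0.04 (SE 0.19) in HCC and -0.10 (SE 0.19) in liver.

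Of the 9 other effectors, 7 were higher in deleted HCC and 1 was higher in deleted liver. Rsad2 encodes viperin, which makes a chain-terminating nucleotide. It read 2.55, 0.24 and 0.64 in wild-type liver, 2.11, -0.08 and 1.17 in deleted liver, 2.44, -0.19 and 0.11 in wild-type HCC and 2.37, 1.62 and 0.58 in deleted HCC. On slide 2 survivin-deleted HCC 2 was the highest array, and slide 1 spanned only 2.11 to 2.55. The deletion difference in HCC was 0.74 (SE 0.40, unadjusted p = 0.092). Cmpk2, the kinase encoded beside Rsad2 that supplies its substrate, had 0.08 (SE 0.39). Parp14, an ADP-ribosyltransferase, averaged 2.42 ± 0.44 in wild-type and 2.78 ± 0.14 in deleted HCC and 2.34 ± 0.13 in deleted liver (SD, n = 3). Its deletion difference in HCC was 0.36 (SE 0.22) with 0.0017 on slide 1 and 0.54 on slide 2, and 0.60 (SE 0.18) with the doubtful libraries exchanged. Ifi44 was higher in HCC than in liver with survivin deleted by 0.72 (SE 0.31, unadjusted p = 0.044), and by 0.40 without survivin-deleted liver 2. Isg20, an exonuclease for RNA, had 0.72 (SE 0.37, unadjusted p = 0.081) in the same comparison. Ifi27l2a had a deletion difference of 0.60 in both tissues (SE 0.52 in each), with survivin-deleted liver 3 at 4.06 as its highest array. Ifi35 was the steadiest member, with a range of 0.31 over the 12 arrays, and Xaf1 and Rtp4 differed by 0.21 at most in either direction on deletion.

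Members varied together only in part. After removing group and slide means, the median correlation over the 595 pairs of members was 0.20. Ifi27l2a (r = 0.84 with the mean of the other members), Isg15 (0.80), Rsad2 (0.74) and Rtp4 (0.74) followed the rest most closely, while Tlr3 (-0.34), Ifi44 (-0.28), Oas2 (0.00017) and Ifit1 (-0.0047) did not. These are descriptions over 12 arrays that share slides.

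The other interferon genes were read from 5 lists. Of 44 other interferon-stimulated genes measured, 32 were higher in deleted HCC (median 0.23) and 20 in deleted liver (median -0.01). In HCC 5 had an unadjusted p under 0.05, all higher (3.48% of all genes). There 3 were separated as higher (2.93% of all genes) and 0 as lower (2.87% of all genes). Among these 3 were Uba7, the E1 enzyme that activates ISG15 (0.82, SE 0.25, limma adjusted p = 0.58), and Ifi30, a lysosomal thiol reductase (1.00, SE 0.32, limma adjusted p = 0.58). Of 18 signal components 11 were higher in deleted HCC (median 0.08). Of 13 negative regulators 11 were higher in deleted HCC (median 0.31). Rnf125, an E3 ligase that targets RIG-I and MDA5, was the 1 separated as lower in each tissue (-0.51, SE 0.17, and -0.48, SE 0.17). Over all genes 2.87% were so separated in HCC and 2.9% in liver. Of the 13 measured of 23 listed ligand and receptor genes 7 were higher in deleted HCC (median 0.05) and 11 in deleted liver (median 0.43), none with an unadjusted p under 0.05. On wild-type liver 1, 7 of these 13 lay below the detection floor of that array (-3.49). The list mean was -0.79 there and -0.17 and 0.09 on the other wild-type liver arrays, and 0.24, 0.06 and -0.18 on the deleted liver arrays. Ifnb1 was well above background on 2 of 12 arrays and Ifna4 on 0. No gene of these lists passed the adjusted threshold.

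Markers of immune cells moved beside these values. In bulk tissue, fewer cells of a type and less RNA per cell cannot be told apart. Of 11 T and NK cell markers 10 were higher in deleted HCC (median 1.09) and 10 in deleted liver (median 0.14). In HCC 4 of the 11 were higher at an unadjusted p under 0.05 (3.48% of all genes), with Gzma (1.56) and Cd3d (1.75) of smallest p. The summed level of these markers, as a mean of centred log2 values, ran from 0.0018 to 1.22 in deleted HCC and from -1.13 to -0.13 in wild-type HCC. Of 7 interferon gamma genes 5 were higher there (median 0.69), from 0.15 to 1.38 in deleted and from -0.53 to -0.05 in wild-type HCC. The highest array of both lists was survivin-deleted HCC 2. Ifng, which T and NK cells make, was -0.86 on that array and -2.78 and -4.04 on the other deleted HCC arrays. Of 12 Kupffer cell and macrophage markers 9 were higher in deleted HCC (median 0.41), 0 in deleted liver (median -0.23) and 0 in wild-type HCC against liver (median -0.60), and all 12 were above 0 in the difference between tissues (median 0.67). Their level ran from -0.47 to 0.54 in deleted and from -0.99 to 0.45 in wild-type HCC. Of 8 B and plasma cell markers 6 were higher in deleted HCC (median 0.81), at 0.07 to 0.42 in deleted and -1.04 to 0.49 in wild-type HCC, and 7 were higher in deleted liver (median 0.21). Of 10 monocyte and neutrophil markers 7 were higher in deleted HCC (median 0.08), 2 in deleted liver (median -0.27), and all 10 were above 0 in the difference between tissues (median 0.42). All 8 endothelial markers were lower in wild-type HCC than in wild-type liver (median -0.16). The part of these cells in the members' values was not tested. Leaving out survivin-deleted HCC 2, 23 members were higher and 12 lower in deleted HCC, with a median of 0.15.

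**Figure D4:**
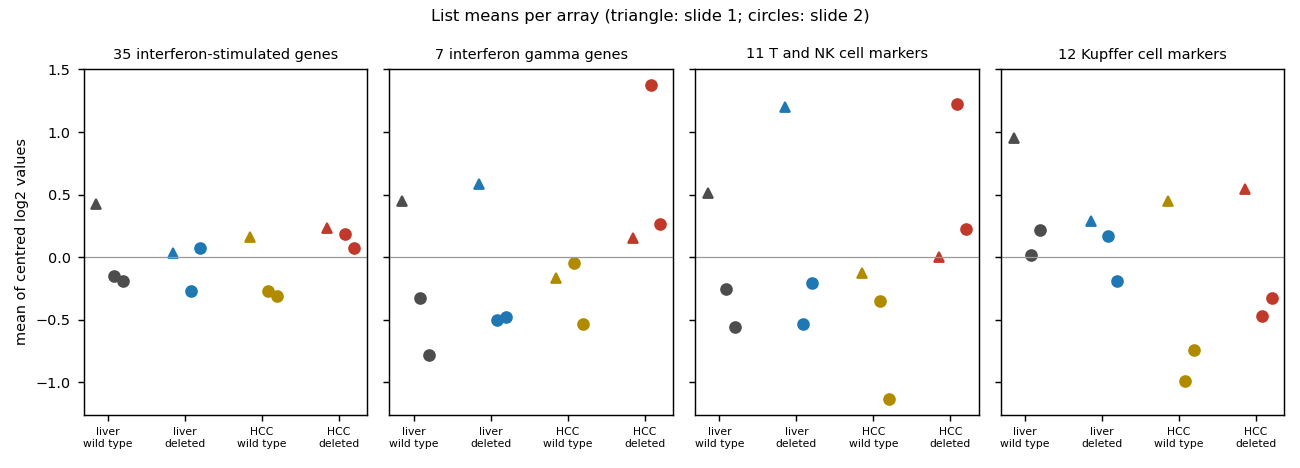
Mean of the centred log2 values of 4 gene lists on each array, by tissue and survivin genotype; triangles are slide 1 and circles slide 2, and 0 is the mean of the 12 arrays. The 3 deleted HCC arrays of the interferon-stimulated genes lie at 0.08 to 0.23 and the wild-type HCC arrays at -0.31 to 0.16, and survivin-deleted HCC 2 is highest for the interferon gamma genes (1.38) and the T and NK cell markers (1.22).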

How the data were processed

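RNA of 12 tissue samples was hybridised to 12 single-colour arrays. Spot intensity was deposited as scanner output, which the submitters' processing notes credit to Feature Extraction 10.7 of Agilent, run by the authors. The authors' deposited log2 value table (column medians -3.26 to -2.51, centred on the 75th percentile by comparison with the scanner values) was used as an alternative only. The 62976 spots of an array held 55681 probes besides controls. Processed signals were log2-transformed, unflagged spots averaged and the 75th percentile subtracted; 39147 probes were kept, each detected above background throughout 1 or more groups, and each of 26512 genes was read from its brightest kept probe. No spot was saturated (0 on each array).

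limma 3.58.1 in R 4.3.3 was fitted to all 12 arrays with 4 group means and slide as a fixed block (7 residual degrees of freedom), with Benjamini-Hochberg adjustment over all genes at 0.05 in 5 contrasts, and was tested on simulated data. The slide difference was read from this model after its size was seen. Birc5 was also tested by exact permutation. Same-numbered arrays of different groups deviated together (18 of 18 correlations over 0.1, from 0.28 to 0.74), which counts as pairing, but within slide 2 alone the range was -0.09 to 0.28, so slide was the block and the replicate number an alternative. Alternatives covered scaling, background correction, filters, probe choice, blocks, array weights, the 2 doubtful libraries and each array left out. The number of arrays limits the precision: the median SE of a member was 0.27.

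The members and lists were chosen with earlier results of these data known. Values on every array are given for 12 members chosen by role and for the 2 of smallest p in each contrast; others are given by group means, ranges or counts, and up to 3 genes per list and contrast are named. Probe positions follow mm9, the promoter windows GRCm38.p6. There is no correction for cell composition.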

Additional observations from a re-analysis of the deposited data

How the results depend on the processing

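Of 645 values recomputed under 26 alternatives, 12 of which leave out 1 array, the 516 with a test kept their side of the adjusted threshold, and the other 129 are medians. No gene passed that threshold in the reported fit, so this says little about sizes. For deletion in HCC, Ifit1 ran from 0.49 to 1.18 and Oas3 from 0.99 to 2.17. In all, 0 members passed in any of the 5 contrasts under any of the alternatives, and the most genes of any kind that passed was 2. The median change of the members moved by less than the spread between arrays (0.17) under all of them. For deletion in HCC it ran from 0.12 to 0.29, for the difference between tissues from 0.21 to 0.40, for HCC against liver from -0.22 to -2.7e-05 in wild type and from 0.07 to 0.31 with survivin deleted. For deletion in liver it ran from -0.23 to 0.06 and was above 0 with array weights (0.06) and on slide 2 only (0.06). Leaving out wild-type liver 1 brought the wild-type HCC against liver median to -2.7e-05 and the liver deletion median to -0.0068.

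Members with an unadjusted p under 0.05 for deletion in HCC, all higher, were 4 in the reported fit and 1 without the slide block (over all genes 303 higher and 190 lower, against 923 and 1175). They were 3 under the filter on all arrays, which left out Oas3 (3.91% of all genes higher). They were 9 on slide 2 only (10.1% of all genes higher and 8.92% lower) and 7 with the doubtful libraries exchanged (3.42% of all genes higher). With 1 array left out they were 2 to 5, where 2.12% to 5.38% of all genes were higher. The lowest of both was without wild-type HCC 3. With the replicate block (paired by number) the medians were 0.16 for deletion in HCC and -0.09 in liver. At an unadjusted p under 0.05, 4 members were higher in HCC (3.38% of all genes) and 1 was lower in liver (2.73% of all genes). With this block 0 members passed the adjusted threshold, and no call changed. The array weights were 0.21 to 0.45 on slide 1 and 0.46 to 4.94 on slide 2. Tlr3 and Oas3 were near background on slide 1, which limits their size there.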
